A study of Mus musculus with 7 samples.

Results

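The genes described here encode the machinery of DNA replication and S phase: 50 mouse genes, chosen by name, whose products license replication origins, unwind and copy DNA, supply its building blocks or govern the entry into S phase. All 50 of 50 were listed among the 14732 genes measured. RNA-seq was performed on whole outflow tracts (OFTs) dissected at embryonic day (E) 11.5. The OFT lies at the arterial pole of the embryonic heart and joins the ventricles to the aortic sac. The study asked how loss of 1 working copy of *Gata6*, a zinc-finger transcription factor of the developing heart, changes gene expression there. The control group held 3 wild-type pools (numbered 3 to 5) and the mutant group 4 *Gata6STOP/+* pools (numbered 1 and 3 to 5), in which 1 copy of *Gata6* carries a premature stop codon introduced with CRISPR-Cas9. The allele is a standard knockout present in every cell of the embryo, the line descends from a selected founder crossed back to C57BL/6, and each pool combines several embryos, so that neither cell types nor single embryos are resolved. The series text gives 3 pools of 4 pairs of OFTs for each genotype, whereas the labels name 7 pools in all, so the number of embryos behind each pool is not certain.

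Origins are licensed in G1, when the origin recognition complex (ORC) with CDC6 and CDT1 loads the MCM helicase onto DNA. At the onset of S phase, cyclin E and its kinase help to convert the loaded helicase into an active one by the addition of CDC45 and GINS, after which the clamp PCNA holds the polymerases on the template. Most of these genes are transcribed in a wave at the G1/S border under E2F factors, and their transcripts are therefore widely read as a mark of cycling cells in embryonic tissues. In bulk tissue, fewer cycling cells and less RNA per cycling cell cannot be told apart.

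To show the sequence that E2F factors recognise in these genes, RefSeq promoter windows of GRCm38.p6, from 250 bases before to 50 bases after the first transcribed base, were searched on both strands for TTTCCCGC, TTTCGCGC, TTTGCCGC and TTTGGCGC. These words can overlap one another. Windows were found for 41 of the 50 genes (48 windows), and *Gmnn*, *Mcm4*, *Gins1*, *Gins2*, *Gins4*, *Rfc2*, *Prim2*, *Pole* and *Ccne2* had none. At least 1 word stood in the windows of 15 of the 41 genes (36.6%), against 2.605% of all 27025 genes in the table. The windows of these genes were also richer in G and C, with a median GC content of 61.3% against 52.7% in all 32851 windows, and the part of base composition in the difference was not tested. CCAAT, the word bound by NF-Y, stood in 61.0% of the matched genes and in 41.1% of all genes. The stretches of *Mcm5* (chr8:75109316-75109403, plus strand), *Mcm6* (chr1:128359768-128359855, minus strand) and *Pola1* (chrX:93632246-93632333, minus strand) are shown because they lie before the annotated gene and hold the words of a helicase pair and of the initiating polymerase, written 5′ to 3′ on the strand of the gene with the E2F words in capitals.
Mcm5: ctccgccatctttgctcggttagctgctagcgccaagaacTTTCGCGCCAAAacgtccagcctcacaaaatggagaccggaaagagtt
Mcm6: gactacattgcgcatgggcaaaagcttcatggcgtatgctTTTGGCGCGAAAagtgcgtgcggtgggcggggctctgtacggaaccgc
Pola1: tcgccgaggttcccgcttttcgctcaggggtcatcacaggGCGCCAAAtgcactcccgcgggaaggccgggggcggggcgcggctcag
In *Mcm5* the capitals hold a pair of words that overlap on opposite strands and start at positions -153 and -149 from the first transcribed base, which is counted as 0. *Mcm6* had the same arrangement at -110 and -106, and a further word at -47. The *Pola1* word reads on the opposite strand and starts at -138. By role, words were found in 4 of the 6 matched helicase genes (*Mcm3*, *Mcm5*, *Mcm6* and *Mcm7*), 3 of 5 licensing genes (*Orc1*, *Cdc6* and *Cdt1*), 4 of 7 polymerase genes (*Pola1*, *Pold1*, *Pold3* and *Pole2*), and 0 of 5 nucleotide supply genes. These matches describe letters in a window and do not show that a factor binds there.

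The expression values are CPM, reads scaled to a library of 1000000 after the authors' adjustment of library sizes, and differences are given on the log2(CPM + 0.5) scale as *Gata6STOP/+* minus control, with standard errors (SE) and 95% intervals from limma fitted to all 14732 genes. Reads on listed genes numbered 17783655 to 29035529 in control and 24736761 to 34467710 in *Gata6STOP/+* pools, and each of the 50 genes had at least 147 reads in every pool. *Gata6* itself measured 315, 257 and 286 CPM in control pools 3, 4 and 5, and 268, 203, 219 and 217 CPM in *Gata6STOP/+* pools 1, 3, 4 and 5. *Gata6STOP/+* pool 1 lay above control pool 4, so the groups overlapped, whereas *Gata6STOP/+* pools 3, 4 and 5 lay below every control. The log2 difference was -0.34 (SE 0.099, limma adjusted p = 0.389). On leaving out 1 pool it ranged from -0.42 to -0.27, and was -0.42 without *Gata6STOP/+* pool 1 (limma adjusted p = 0.17). Of all genes, 0 (0%) passed an adjusted p of 0.05 with limma and with the edgeR quasi-likelihood test, and 1187 (8.06%) had an unadjusted p below 0.05. The edgeR likelihood ratio test called 105 (0.713%), or 118 (0.801%) with the replicate number as a block, and DESeq2 called 88 (0.597%).

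The replication machinery was transcribed at closely similar levels in control and *Gata6STOP/+* OFTs. The 50 genes together made up 3601, 3740 and 3728 CPM in the control pools and 3634, 3719, 3588 and 3774 CPM in the *Gata6STOP/+* pools, a *Gata6STOP/+* mean of 99.7% of control, and the groups overlapped. Their median log2 difference was -0.02, against -0.00073 over all genes, and 18 of the 50 lay above 0, against 49.8% of all genes. None of the 50 passed the limma threshold of 0.05, against 0% of all genes. None was called with the edgeR quasi-likelihood test, the edgeR likelihood ratio test with or without the block, or DESeq2 either. An unadjusted limma p below 0.05 was found for 1 gene that was higher (against 4.17% of all genes) and 1 that was lower (against 3.88%).

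The intervals limit how large a difference these pools leave room for. For 46 of the 50 genes the whole 95% interval lay within 1.25-fold either way (0.32 on the log2 scale), against 54.5% of all genes and 73.8% of the 9967 genes in the same range of mean CPM. The exceptions were *Orc1*, *Gins2*, *Pola1* and *Ccne2*. The log2 difference was below 0.1 in size for 44 of the 50 genes (88%), against 58.9% of all genes and 67.8% of those in the same CPM range. Spread between pools of the same genotype was small as well. The median residual SD was 0.081 on the log2 scale, against 0.106 among genes of the same CPM range. Genes of this range share its limits but were not matched by level. Their median level was 39.95 CPM, against 49.4 CPM for the 50 genes. The part of level in these shares and in the spread was not tested.

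**Figure D1:**
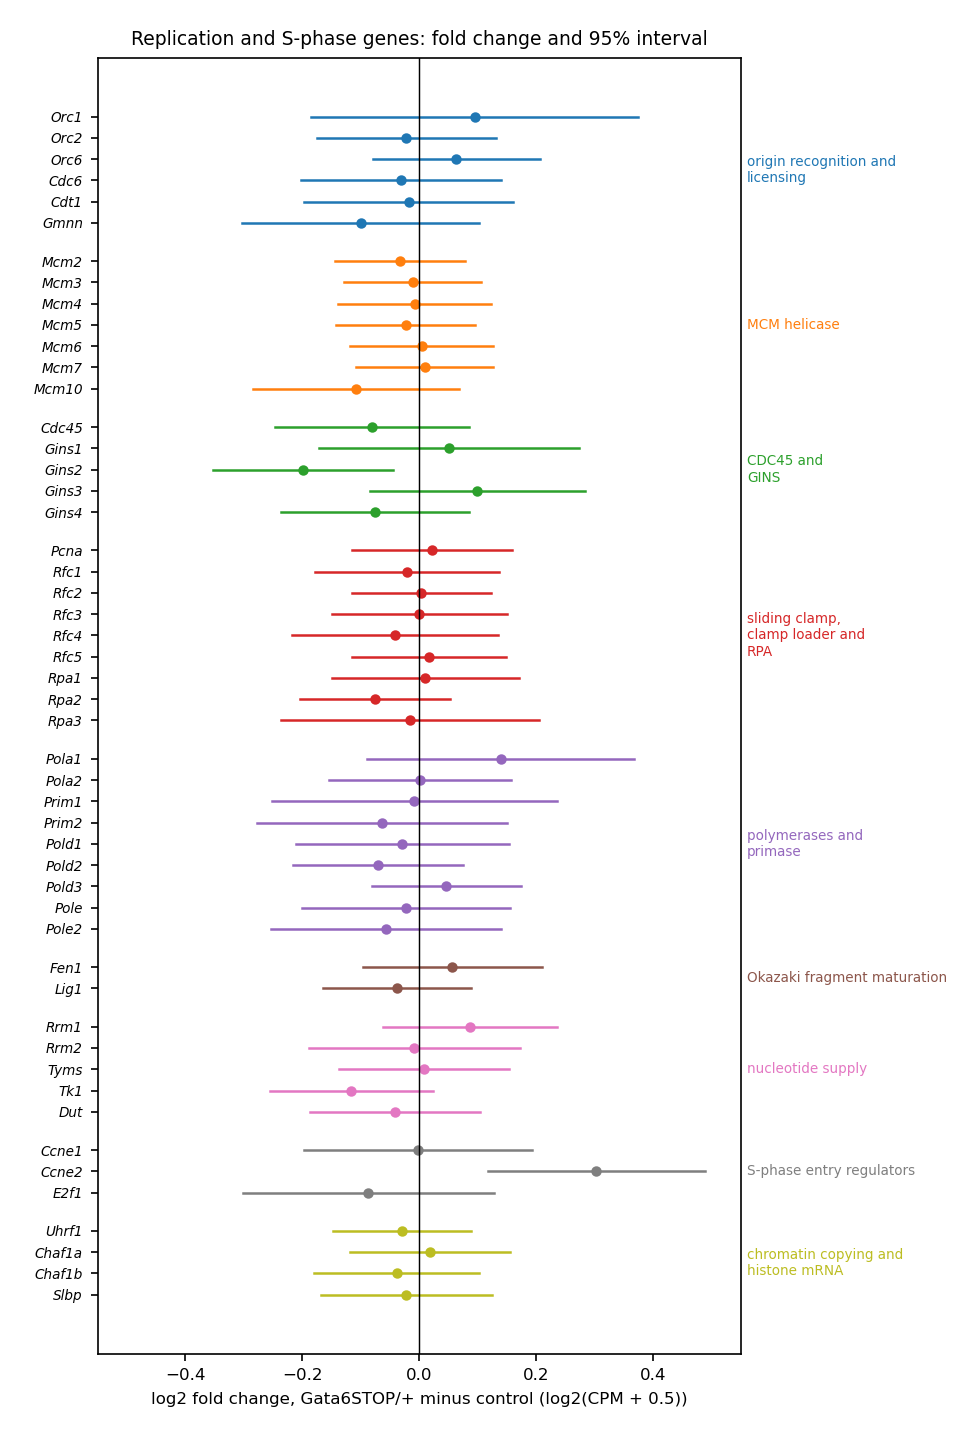
Log2 difference (x axis, *Gata6STOP/+* minus control on log2(CPM + 0.5)) of each of the 50 genes, grouped by role, with points for the limma estimate and bars for its 95% interval, from 3 control and 4 *Gata6STOP/+* pools. The bars of *Ccne2* and *Gins2* alone do not reach 0, and neither gene passed the adjusted threshold.

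**Figure D2:**
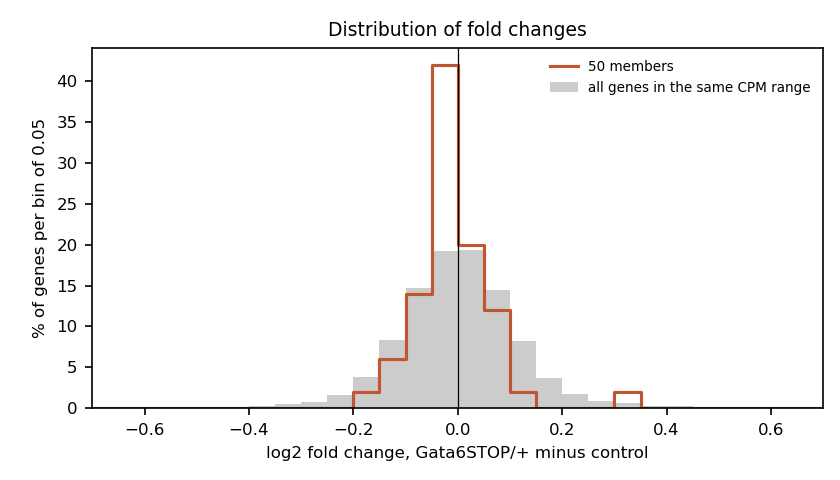
Percentage of genes (y axis) in each bin of 0.05 of the log2 difference (x axis), for the 50 replication genes (line) and for all 9967 genes in the same range of mean CPM (grey). The replication genes are gathered around 0, with *Ccne2* alone at 0.30.

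The only genes of the 50 whose pools separated by genotype were *Ccne2*, upward, and *Gins2*, downward. Over all genes, 8.47% separated in this way, 4.31% upward and 4.16% downward, so that 1 of 50 in each direction is a smaller share than the background.

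*Ccne2*, on the plus strand of chromosome 4 (GRCm38 11191351 to 11204779), encodes cyclin E2, which activates CDK2 at the start of S phase. It measured 33.6, 41.9 and 36.6 CPM in control pools 3, 4 and 5, and 46.8, 42.2, 46.9 and 48.2 CPM in *Gata6STOP/+* pools 1, 3, 4 and 5. Control pool 4 and *Gata6STOP/+* pool 3 were almost level, and the other *Gata6STOP/+* pools stood clear of the controls. The means were 37.3 ± 4.22 (SD, n = 3) and 46.0 ± 2.61 (SD, n = 4) CPM, and the log2 difference of 0.30 (SE 0.084, interval 0.12 to 0.49) had an unadjusted p of 0.0043 and an adjusted p of 0.354 with limma. Its adjusted p ranged from 0.149 to 0.669 over the alternative fits. Without a pool, its log2 difference was 0.23 to 0.39.

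*Ccne1*, which encodes the sister cyclin E1, did not share this pattern. It measured 28.3, 33.8 and 30.9 CPM in control and 28.1, 32.3, 34.0 and 29.6 CPM in *Gata6STOP/+* pools, with a log2 difference of -0.0021 (interval -0.20 to 0.19). The quotient of *Ccne2* over *Ccne1* CPM was 1.18, 1.24 and 1.18 in the control pools and 1.67, 1.31, 1.38 and 1.63 in the *Gata6STOP/+* pools, so each *Gata6STOP/+* pool exceeded each control pool. This quotient was formed after the values of *Ccne2* were seen and was not tested. *E2f1*, which encodes an E2F activator and stood with both cyclins among the regulators of S-phase entry, measured 34.2, 31.9 and 35.2 CPM in control and 26.4, 32.2, 34.6 and 34.5 CPM in *Gata6STOP/+* pools. Only *Gata6STOP/+* pool 1 lay below all controls, and the interval of the difference ran from -0.30 to 0.13.

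*Gins2*, on the minus strand of chromosome 8 (GRCm38 120578633 to 120589304), encodes the PSF2 subunit of GINS, the tetramer that joins MCM and CDC45 in the active helicase. It measured 35.9, 35.4 and 39.6 CPM in control and 30.3, 32.7, 32.8 and 32.8 CPM in *Gata6STOP/+* pools. The 4 *Gata6STOP/+* pools all lay below the lowest control, with pools 3, 4 and 5 nearly level and pool 1 beneath them. The means were 37.0 ± 2.29 (SD, n = 3) and 32.1 ± 1.24 (SD, n = 4) CPM, and the log2 difference of -0.20 (SE 0.070, interval -0.35 to -0.04) had an adjusted limma p of 0.497. The alternative fits gave adjusted p-values of 0.454 to 0.992. On leaving out 1 pool, the log2 difference of *Gins2* was -0.23 to -0.15, smallest in size without control pool 5. Its unadjusted limma p of 0.016 became 0.079 without that pool and 0.075 with the replicate number as a block.

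The other subunits of the tetramer did not separate. *Gins1* (PSF1) measured 15.6, 16.7 and 19.7 CPM in control and 16.2, 19.5, 18.3 and 17.8 CPM in *Gata6STOP/+* pools, with an interval from -0.17 to 0.27. *Gins3* (PSF3) measured 16.6, 15.9 and 17.1 CPM in control and 18.1, 16.9, 19.2 and 16.8 CPM in *Gata6STOP/+* pools, with an interval from -0.08 to 0.28. *Gins4* (SLD5) measured 33.6, 34.7 and 39.1 CPM in control and 35.5, 34.1, 32.6 and 33.5 CPM in *Gata6STOP/+* pools. For *Gins1*, *Gins2* and *Gins4* alike, control pool 5 was the highest of all 7 pools. *Cdc45*, which encodes their partner in the helicase, had 32.1 ± 2.02 CPM (SD, n = 3) in control and 30.3 ± 1.73 CPM (SD, n = 4) in *Gata6STOP/+* OFTs, a log2 difference of -0.08 (interval -0.25 to 0.08).

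**Figure D3:**
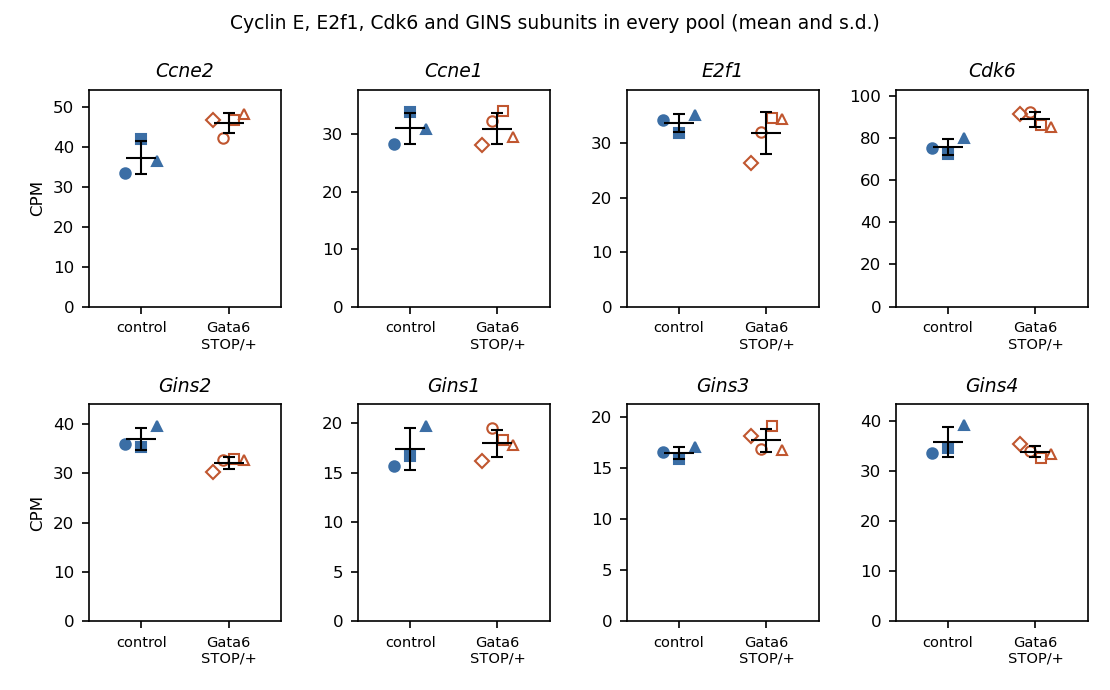
CPM (y axes, from 0) of both cyclin E genes, *E2f1*, *Cdk6* and the GINS subunits in each pool, with filled blue symbols for control and open red symbols for *Gata6STOP/+* pools (diamond, replicate 1; circle, 3; square, 4; triangle, 5) and black bars for the mean and SD. Pools separate by genotype for *Ccne2*, *Cdk6* and *Gins2*, and overlap in the other panels.

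The MCM genes, which encode the hexameric ring that unwinds DNA, varied least between pools of 1 genotype. Their median residual SD was 0.043 on the log2 scale, against 0.061 to 0.12 in the other role groups. Their median level was also the highest (164 CPM against 31.1 to 86.9 CPM), and the part of level in this spread was not tested. The 6 subunit genes *Mcm2* to *Mcm7* had log2 differences from -0.03 (*Mcm2*) to 0.01 (*Mcm7*), and all 6 intervals lay between -0.14 and 0.13. *Mcm2* measured 176, 175 and 169.7 CPM in control and 168, 171, 167 and 171 CPM in *Gata6STOP/+* pools, and its highest pool was 1.05 times its lowest, the smallest such ratio among the 50 genes. Over the 50 genes, the median of this ratio was 1.18, against 1.24 among genes of the same CPM range, which were not matched by level. *Mcm4* measured 154, 167 and 169 CPM in control and 168, 156, 158 and 168 CPM in *Gata6STOP/+* pools, with overlap. *Mcm10*, which is not a ring subunit but binds the helicase as it is activated, was the member of the group with the smallest p. It measured 35.1, 33.1 and 37.1 CPM in control and 31.7, 32.97, 29.7 and 36.0 CPM in *Gata6STOP/+* pools, and its interval ran from -0.28 to 0.07 (limma adjusted p = 0.783).

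Among the 6 licensing genes, 0 passed the test and all 6 overlapped between groups, with a median log2 difference of -0.02. *Gmnn* encodes geminin, which holds CDT1 inactive after licensing, and had the smallest p of the group. It measured 38.2, 39.95 and 45.9 CPM in control and 34.3, 43.2, 37.0 and 39.6 CPM in *Gata6STOP/+* pools, with a log2 difference of -0.10 (interval -0.30 to 0.10, limma adjusted p = 0.819). Without control pool 5, the highest of all pools, the difference was -0.02, without *Gata6STOP/+* pool 1 it was -0.05, and without control pool 3 or *Gata6STOP/+* pool 3 it was -0.16. *Orc1*, which encodes the largest ORC subunit and had the lowest CPM of the 50 genes, measured 8.58, 8.32 and 8.23 CPM in control and 9.40, 7.10, 9.88 and 9.83 CPM in *Gata6STOP/+* pools. *Gata6STOP/+* pool 3 was below every control and the other *Gata6STOP/+* pools above, and the interval of the difference (-0.18 to 0.37) was among the widest here. *Orc2*, *Orc6*, *Cdc6* and *Cdt1* had log2 differences from -0.03 to 0.06.

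The 9 genes of the sliding clamp, its loader and RPA, the protein that covers single-stranded DNA, had log2 differences from -0.08 to 0.02, with a median of -0.00018 and 0 genes past the test. *Pcna*, which encodes the clamp and is widely used to mark proliferating cells, measured 178, 190.1 and 205 CPM in control and 190.0, 202, 189 and 194 CPM in *Gata6STOP/+* pools. The groups overlapped and the interval ran from -0.11 to 0.16. *Rpa2*, the middle subunit of RPA, measured 61.0, 56.8 and 58.6 CPM in control and 56.3, 56.4, 53.4 and 56.9 CPM in *Gata6STOP/+* pools. Control pool 4 lay among the *Gata6STOP/+* values, and the log2 difference was -0.08 (interval -0.20 to 0.05, limma adjusted p = 0.788). *Rfc5*, a small subunit of the clamp loader, measured 47.6, 45.3 and 44.7 CPM in control and 45.5, 48.0, 45.3 and 46.9 CPM in *Gata6STOP/+* pools.

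The 9 polymerase and primase genes had a median log2 difference of -0.02, and 0 passed the test. *Pola1*, on chromosome X, encodes the catalytic subunit of polymerase alpha, which extends the RNA primers of primase. It measured 34.2, 42.5 and 39.98 CPM in control and 47.2, 40.8, 36.8 and 46.9 CPM in *Gata6STOP/+* pools, with overlap and an interval from -0.09 to 0.37 (limma adjusted p = 0.783). Its log2 difference of 0.14 was 0.05 without control pool 3, the lowest of all pools, and 0.21 without *Gata6STOP/+* pool 4. *Prim2*, the large primase subunit, measured 20.9, 24.3 and 26.4 CPM in control and 25.1, 23.1, 21.6 and 21.1 CPM in *Gata6STOP/+* pools. *Pold2*, an accessory subunit of polymerase delta, measured 46.1, 49.4 and 46.8 CPM in control and 41.8, 45.03, 47.0 and 46.8 CPM in *Gata6STOP/+* pools. In both genes the groups overlapped, with log2 differences of -0.06 and -0.07.

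*Fen1*, the nuclease that trims the flaps of Okazaki fragments, measured 56.1, 49.9 and 56.3 CPM in control and 55.9, 58.3, 52.3 and 58.5 CPM in *Gata6STOP/+* pools. Its log2 difference of 0.06 rested on control pool 4, the lowest of all pools, and was -0.00016 without it. *Lig1*, the ligase that seals the fragments, had a log2 difference of -0.04 (interval -0.16 to 0.09).

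For nucleotide supply, 5 of 5 genes overlapped between groups and 0 passed the test. *Tk1*, thymidine kinase of the salvage pathway, had the smallest p of this group. It measured 55.9, 53.3 and 59.0 CPM in control and 49.9, 54.6, 51.9 and 50.3 CPM in *Gata6STOP/+* pools, a log2 difference of -0.12 (SE 0.063, interval -0.26 to 0.02, limma adjusted p = 0.688). Only *Gata6STOP/+* pool 3 reached into the control range. *Rrm2*, the regulated subunit of ribonucleotide reductase, measured 132, 155 and 149.7 CPM in control and 128, 157, 141 and 152 CPM in *Gata6STOP/+* pools. *Tyms*, thymidylate synthase, measured 52.1, 54.2 and 60.03 CPM in control and 57.0, 53.3, 56.2 and 56.1 CPM in *Gata6STOP/+* pools. Neither showed an order by genotype.

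The 4 genes of chromatin copying and histone mRNA had log2 differences from -0.04 to 0.02. Their summed level was 347.4, 347.0 and 347.3 CPM in the control pools, and 342, 345, 335 and 348 CPM in the *Gata6STOP/+* pools. *Uhrf1*, which reads hemimethylated DNA behind the fork, measured 163, 159 and 154 CPM in control and 152, 159, 152 and 159.7 CPM in *Gata6STOP/+* pools. *Chaf1b*, a subunit of the histone chaperone CAF-1, measured 37.7, 40.5 and 39.8 CPM in control and 36.3, 39.3, 38.3 and 39.3 CPM in *Gata6STOP/+* pools. Both overlapped between groups.

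**Figure D4:**
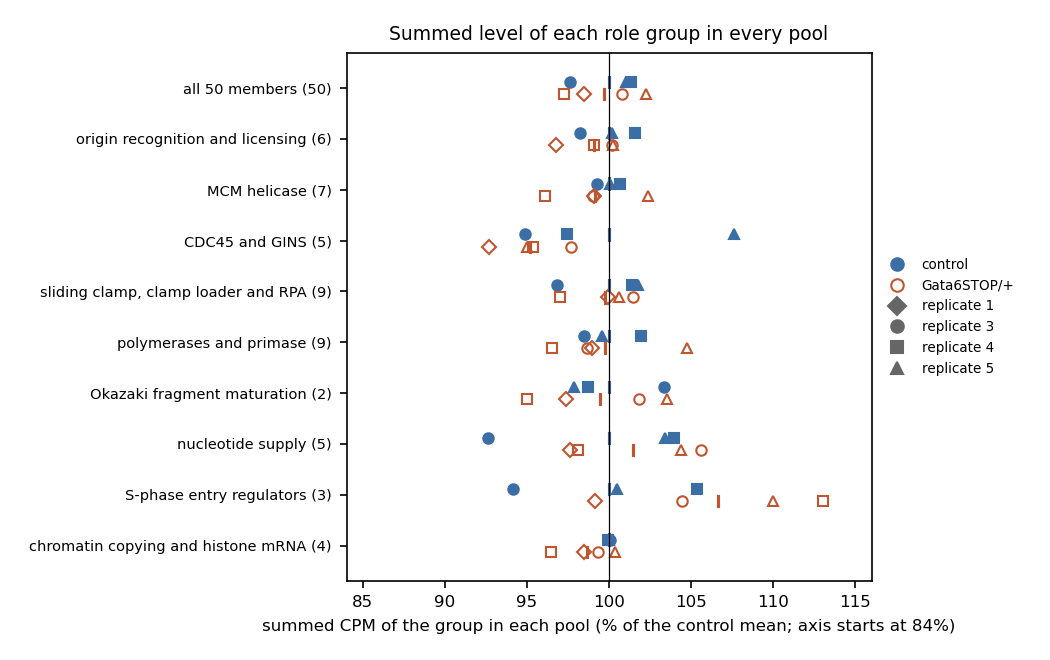
Summed CPM of each role group in every pool as a percentage of the control mean (x axis, starting at 84%), with the number of genes in brackets, blue symbols for control, red for *Gata6STOP/+* and a short bar for each mean. Group means lie between 95.2% (CDC45 and GINS) and 107% (S-phase entry regulators) of control, and the groups overlap in each row.

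On average the 50 genes also shifted by small amounts from pool to pool, with control pools at both ends. The mean deviation of the 50 genes from their overall means was lowest in control pool 3 (-0.04 on the log2 scale) and highest in control pool 5 (0.04), with the *Gata6STOP/+* pools from -0.03 (pool 4) to 0.03 (pool 5). Control pool 3 held the lowest value for 15 of the 50 genes, but also the highest for 8. Control pool 5 held the highest for 15 and the lowest for 3, and *Gata6STOP/+* pool 1 the lowest for 13 and the highest for 6. Control pools 5 and 3 had the fewest reads of all pools (17783655 and 20930875), and these counts were not compared with those of all genes. Together the 50 genes took 0.357% to 0.377% of the CPM in a pool.

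Levels between genes were compared per kb of merged exons (GENCODE M21, GRCm38), and again per kb of the longest coding transcript. The deposited values are per gene, so the share of each isoform was not known. In control OFTs, *Pcna* stood highest with 79.6 ± 5.58 CPM per kb (SD, n = 3) and *Orc1* lowest with 2.41 ± 0.053 CPM per kb, and both kept these places with the other length (126 and 2.78 CPM per kb). By role, the highest and lowest levels per kb of merged exons were those of *Gmnn* (28.2) and *Orc1* in licensing, *Mcm4* (45.6) and *Mcm10* (4.57) in the MCM group, *Gins4* (26.6) and *Gins3* (6.10) in CDC45 and GINS, *Pcna* and *Rfc5* (9.83) in the clamp group, and *Pold2* (25.01) and *Prim2* (4.01) among polymerases. *Rrm2* (52.5) and *Tyms* (9.11) bounded nucleotide supply, and *Uhrf1* (37.3) and *Chaf1b* (8.41) the chromatin genes.

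How far subunits of 1 complex differed in transcript level depended on the complex and on the length used. The GINS genes followed the order *Gins4*, *Gins1*, *Gins2*, *Gins3* with either length and in both genotypes, and the highest was 4.35 times the lowest per kb of merged exons and 4.05 times per kb of the longest transcript. Control values per kb did not overlap between *Gins4* (24.9 to 29.0) and *Gins1* (10.3 to 13.0). The MCM subunits spanned 1.83-fold from *Mcm4* to *Mcm2* with merged exons, and 1.48-fold from *Mcm7* to *Mcm5* with the longest transcripts, so their order depends on the length used. With merged exons, *Mcm4* (43.0 to 47.2), *Mcm3* (42.9 to 44.8) and *Mcm6* (42.6 to 44.4) overlapped between control pools. The 5 clamp loader genes spanned 2.0-fold with merged exons and 1.89-fold with the longest transcripts, and the 4 genes of polymerase alpha and primase 2.22-fold and 3.0-fold. The RPA genes spanned 1.21-fold with merged exons, where their control pools overlapped, and 1.76-fold with the longest transcripts. *Rrm2* was 2.32 times *Rrm1* per kb of merged exons and 1.06 times with the longest transcripts. The order of *Ccne1* and *Ccne2* per kb of merged exons was *Ccne1* first in control (11.7 and 10.7 CPM per kb) and *Ccne2* first in *Gata6STOP/+* OFTs (11.6 and 13.2), whereas *Ccne1* stayed first with the longest transcripts.

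**Figure D5:**
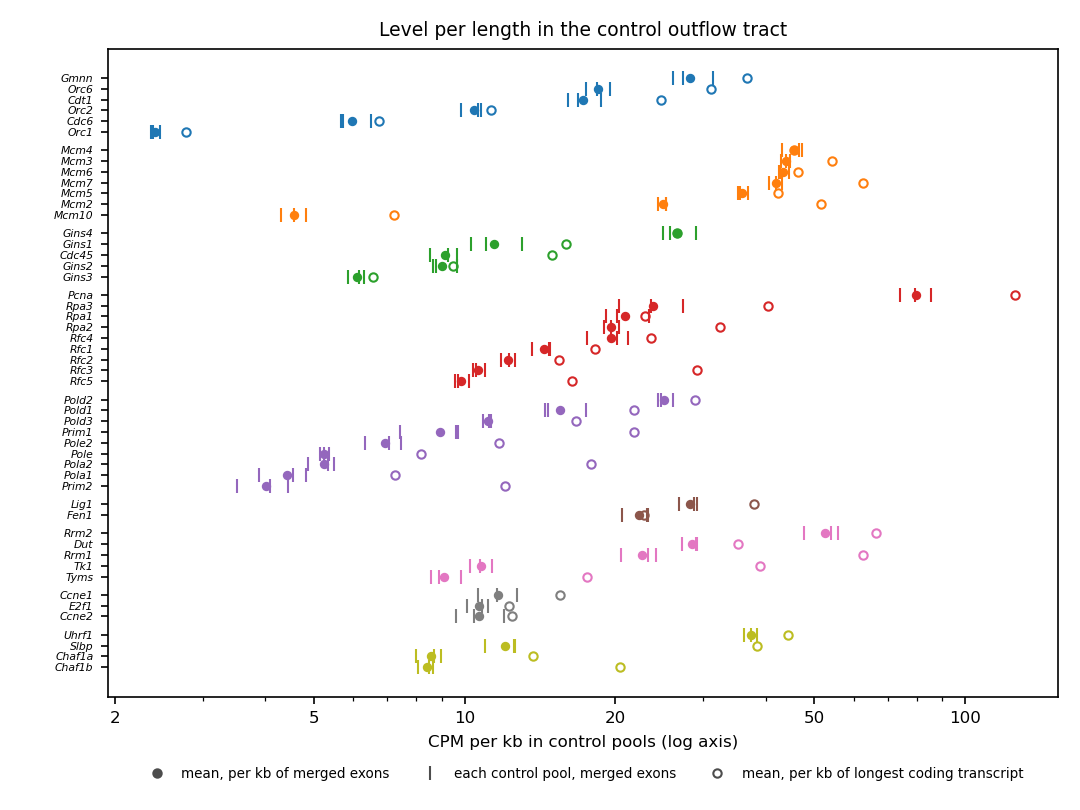
CPM per kb (x axis, log scale) of each of the 50 genes in control OFTs, ordered within roles, with filled points for the mean per kb of merged exons, ticks for the 3 control pools and open points for the mean per kb of the longest coding transcript. *Pcna* is highest and *Orc1* lowest with both lengths, and the open points change the order within several complexes.

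Some of these levels include reads whose origin is uncertain. Of the 60-base words in annotated transcripts of *Pcna*, 17.0% are shared with another gene (chiefly *Pcna-ps2*), as are 14.3% for *Mcm7* (*Gm5487*), 12.3% for *Uhrf1* (*Gm5648*), 8.64% for *Rpa3* (*Gm6195*) and 7.18% for *Pole2* (*Gm49384*, which overlaps it on the same strand). No such word is shared for *Ccne2* or *Gins2*. *Ints8* overlaps *Ccne2* and *Gse1* overlaps *Gins2* on the opposite strand. The library kit keeps strand, but whether the counting used it was not given in the sources used here.

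Of 40 further genes of the replication fork and origins, all listed, 0 passed the test, 27 lay above 0 (against 49.8% of all genes), and the median log2 difference was 0.04. Pools separated upward for *Dscc1*, a clamp-loader partner for cohesion, and *Donson*, a helicase assembly factor, that is for 2 of 40 genes against 4.31% of all genes. *Dscc1* measured 7.38, 7.28 and 8.18 CPM in control and 8.91, 8.69, 9.07 and 9.16 CPM in *Gata6STOP/+* pools, a log2 difference of 0.22 (interval 0.01 to 0.44, limma adjusted p = 0.601). *Donson* measured 23.1, 23.1 and 23.7 CPM in control and 25.6, 24.0, 24.4 and 23.8 CPM in *Gata6STOP/+* pools, the nearest values of the groups being 23.7 and 23.8 CPM.

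Of 28 E2F, pocket protein and G1/S regulators, 0 passed the test, 15 lay above 0, and the median was 0.01. *Cdk6*, a kinase partner of D cyclins that phosphorylates the retinoblastoma protein, measured 75.4, 72.4 and 79.9 CPM in control and 91.2, 92.5, 86.4 and 85.3 CPM in *Gata6STOP/+* pools. The lowest *Gata6STOP/+* pool stood above the highest control (85.3 and 79.9 CPM), and the log2 difference was 0.23 (SE 0.060, interval 0.09 to 0.36, limma adjusted p = 0.333). *Tfdp2*, a dimer partner of E2F factors, measured 43.6, 45.8 and 47.0 CPM in control and 55.1, 48.6, 50.8 and 54.9 CPM in *Gata6STOP/+* pools, also without overlap (log2 difference 0.20, limma adjusted p = 0.466). Over the alternative fits the adjusted p ranged from 0.102 to 0.582 for *Cdk6* and from 0.341 to 0.827 for *Tfdp2*, so neither was called, and 2 of 28 genes above is to be read against 4.31% of all genes.

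Of 23 other nucleotide synthesis genes, 0 passed the test and the median was 0.02. *Dck*, deoxycytidine kinase, measured 54.1, 58.1 and 53.9 CPM in control and 58.9, 66.6, 59.6 and 66.6 CPM in *Gata6STOP/+* pools, with every *Gata6STOP/+* pool above (log2 difference 0.18, limma adjusted p = 0.534). *Mthfd2*, a mitochondrial folate enzyme, measured 33.4, 35.4 and 34.8 CPM in control and 29.4, 32.5, 33.3 and 32.6 CPM in *Gata6STOP/+* pools, with every *Gata6STOP/+* pool below by a small margin. These were 2 of 23 genes that separated, against 8.47% of all genes. Of 20 mitosis genes, 0 passed the test, 0 separated (against the same 8.47%), and the median was -0.0081. *Kif11*, a spindle motor and the mitosis gene with the smallest p, measured 105, 120.0 and 114 CPM in control and 131, 125, 109 and 132 CPM in *Gata6STOP/+* pools.

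Genes with and without an E2F word in their promoter window had overlapping ranges of the log2 difference. The 15 with a word had a median log2 difference of -0.01 (from -0.06 to 0.14), and the 26 without had a median of -0.02 (from -0.12 to 0.09).

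Markers of the cell types of the OFT were present, with 10 of 10 cardiomyocyte, 8 of 8 endothelial and endocardial, 7 of 7 cushion mesenchyme and 4 of 4 smooth muscle genes listed. Cardiomyocyte markers summed to 18192 to 20040 CPM in control and 15320 to 20697 CPM in *Gata6STOP/+* pools, with pool 1 the lowest, and smooth muscle markers to 2441 to 2889 and 2547 to 3397 CPM. Endothelial markers summed to 776 to 1069 and 853 to 1044 CPM, and mesenchyme markers to 4530 to 5526 and 4128 to 5109 CPM. In these 4 lists the sums overlapped between groups, but sums follow the most abundant genes. The cardiomyocyte marker *Nppa* measured 32.1, 174 and 18.3 CPM in control and 3.26, 28.3, 6.63 and 11.8 CPM in *Gata6STOP/+* pools. Its groups overlapped (log2 difference -2.27, limma adjusted p = 0.455). Control pool 4 was the highest of all pools for *Nppa* and for the endothelial markers *Emcn* (35.2 CPM) and *Npr3* (100 CPM). *Pdgfra* (log2 difference -0.50, limma adjusted p = 0.354) and *Tnni1* (-0.26, limma adjusted p = 0.598) had every *Gata6STOP/+* pool below every control. That is 1 of 7 mesenchyme and 1 of 10 cardiomyocyte markers, against 4.16% of all genes. Log2 differences above 0 were found for 1 of 7 mesenchyme and 3 of 10 cardiomyocyte markers. They were also found for 6 of 8 endothelial and 4 of 4 smooth muscle markers, with 0 called in any of the 4 lists. In the paper, staining for the product of *Acta2* marked both myocardium and smooth muscle, so *Acta2* does not tell these apart. *Myh11* measured 3.21, 3.97 and 5.49 CPM in control and 12.5, 3.19, 8.99 and 6.25 CPM in *Gata6STOP/+* pools. Neural crest and glial markers (5 of 6 listed, without *Foxd3*) summed to 83.6 to 118 CPM in control and 70.2 to 82.3 CPM in *Gata6STOP/+* pools and did not overlap, with 0 of 5 genes called. Erythroid markers (8 of 8) summed to 2291 to 5531 and 2668 to 6955 CPM, and all 8 had a log2 difference above 0 with 0 called. These sums overlapped too. Control pool 5 and *Gata6STOP/+* pool 5 had the highest erythroid sums of their groups and the highest mean deviations of the replication genes. The other pools did not keep this order. Control pool 4 had the lowest erythroid sum (2291 CPM) but a mean deviation of 0.02, above that of control pool 3. *Gata6STOP/+* pool 4 summed to 4357 CPM, above pools 1 and 3, but had the lowest mean deviation of its group (-0.03). Neuronal markers (5 of 5) summed to 44.99 to 68.9 and 51.4 to 62.0 CPM, macrophage markers (5 of 5) to 38.3 to 48.1 and 29.1 to 65.0 CPM, and epithelial markers (2 of 6, *Krt8* and *Krt18*) to 69.9 to 110.0 and 83.5 to 117 CPM. Of the 5 neuronal markers, 3 had a log2 difference above 0, with 0 called. *Stmn2* measured 16.7, 14.1 and 18.9 CPM in control and 22.9, 19.8, 23.5 and 21.7 CPM in *Gata6STOP/+* pools. Every *Gata6STOP/+* pool thus lay above every control (log2 difference 0.40, limma adjusted p = 0.333), against 4.31% of all genes. *Tubb3* went the other way, with overlap (-0.39, limma adjusted p = 0.595). The part of cell composition in these shifts, and in the values of *Ccne2* and *Gins2*, was not tested.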

How the data were processed

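RNA was isolated from pools of E11.5 OFTs with a PicoPure kit, and poly(A) libraries that keep strand were read as 60-base single ends. The authors trimmed adapters (Cutadapt), quantified Ensembl genes on GRCm38 (RSEM), kept genes with 1 CPM in at least 3 samples and scaled the counts by the trimmed mean of M-values (edgeR). The deposited values are CPM on these scaled library sizes. Each value was a whole multiple (tolerance 0.01) of 1 step per pool, and 100% of values came out as whole reads, which gave the depths stated and the input for the count tests.

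Genes were tested on log2(CPM + 0.5) with limma 3.58.1 (R 4.3.3; lmFit, eBayes with trend), two-sided, with genotype as the only term and all 7 pools in the fit. The p-values of 14732 genes were adjusted by Benjamini-Hochberg and read at 0.05. Differences on this scale understate the change of low genes. Groups and replicate numbers came from the sample titles, and p-values measure the spread between pools. Alternatives were other constants (0.1 and 2), a mean of at least 5 CPM, median-of-ratios scaling, a replicate block, edgeR 4.0.16, DESeq2 1.42.0 and leaving out each pool. The limma, edgeR and DESeq2 fits were tested on simulated reads. The 50 genes and all lists were chosen with earlier results of these data known. Values in each pool are given for *Gata6* and, outside the cell type markers, for genes whose pools separate. They are also given for the gene with the smallest p of each role or list. In roles of at least 4 genes, they cover the highest and lowest level per kb of exon. Cell type markers whose pools separate are named. *Nppa*, *Emcn*, *Npr3* and *Tubb3* were added after their values were seen. *Ccne1*, *E2f1*, *Gins1*, *Cdc45*, *Mcm2*, *Lig1* and the *Ccne2*/Ccne1 quotient were added after their values were seen, as was the second length measure. Positions are from GENCODE M21 and promoter windows from RefSeq (GRCm38.p6).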

Additional observations from a re-analysis of the deposited data

Results flagged for a closer look

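In 3 of the 68 sets of 4 *Gata6STOP/+* values examined, 1 pool stood apart from the other 3 by more than the 95% limit of Dixon's test. Chance gives such a set about 1 time in 20. *Orc2*, an origin recognition subunit, measured 43.0 CPM in *Gata6STOP/+* pool 1 and 38.4 to 38.6 CPM in the others. *Gins2* measured 30.3 CPM in pool 1 and 32.7 to 32.8 CPM in the others. *Pole2*, a subunit of polymerase epsilon, measured 17.3 CPM in pool 3 and 19.7 to 20.1 CPM in the others. In the case of *Gins2* all 4 pools lay below the controls with and without pool 1.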

How the results depend on the processing

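None of the 50 genes was called in any of the 16 alternatives, their median log2 difference stayed between -0.03 and -0.0037, and 16 to 23 of them lay above 0. The number of all genes called was 0 with limma and became 1 with a constant of 0.1, 14 with the replicate block, 105 with the edgeR likelihood ratio test, 118 with that test and the replicate block, 88 with DESeq2, and 0 to 13 on leaving out 1 pool, with 13 without control replicate 4, 2 without *Gata6STOP/+* replicate 3 and 1 without *Gata6STOP/+* replicate 1. The number of the 50 genes whose pools did not overlap was 2, and 2 to 7 on leaving out 1 pool: 7, 6 and 5 on leaving out control replicate 3, 4 or 5 (against 14.7%, 19.1% and 16.2% of all genes), and 4 on leaving out *Gata6STOP/+* replicate 3 (14.6%) or 5 (11.1%), where fewer pools make separation easier. Of 272 values for 17 named genes, 270 kept direction and side of the threshold, though leaving out 1 pool moved small differences by over 1.5 times (*Gmnn* from -0.02 to -0.16, *Pola1* from 0.05 to 0.21, *Chaf1b* from -0.01 to -0.07). *Fen1* ranged from -0.00016 (without control replicate 4) to 0.0908 on leaving out 1 pool, and *Gata6* passed with the likelihood ratio test and the replicate block (-0.42, adjusted p = 0.0164). Same-numbered pools did not deviate together (correlations across genes of -0.0084, -0.12 and -0.0016 for replicates 3, 4 and 5), so the numbers were not taken to pair the samples. These correlations run over all genes, most of which may vary for other reasons, so they cannot exclude a pairing. The block changed no call among the 50 genes and leaves *Gata6STOP/+* replicate 1, without a numbered partner, no weight in the difference. With 3 and 4 pools, the intervals of the 50 genes reach from -0.35 to 0.49.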
